A study of Homo sapiens with 6 samples.

Results

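The genes described here are those of the lysosome, of the vacuolar proton pump (V-ATPase) and of autophagy in U2932, a human cell line grown from a diffuse large B-cell lymphoma of the activated B-cell type (ABC-DLBCL). They comprise 42 genes listed by name and 23 V-ATPase genes, found as all symbols that begin with ATP6V0 or ATP6V1 and are neither antisense transcripts nor pseudogenes, together 65 of the 20667 gene symbols in each library. The 23 include the readthrough transcript ATP6V1G2-DDX39B. RNA was sequenced from U2932 cells that stably carried either an shRNA against ROCK2 (ROCK2 KD) or a scrambled shRNA (Scr), in 3 libraries each, numbered as replicates 1 to 3 in both groups. Both shRNAs were delivered by lentivirus from pLKO.1 vectors that also hold a puromycin resistance cassette and the fluorescent marker tGFP, so the Scr cells share the virus and the vector. The labels name a single ROCK2 knockdown and do not state whether libraries of a group came from separate infections or cultures. The p values of the main fit therefore measure how the difference between same-numbered libraries varied over the 3 replicate numbers. That variation may be technical.

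Lysosomes are acidic organelles in which proteases, glycosidases and lipid hydrolases break down material delivered by endocytosis and autophagy. The V-ATPase acidifies them, with a peripheral V1 sector that hydrolyses ATP and a V0 sector in the membrane that carries the protons. Autophagy encloses cytoplasm in a membrane to which proteins of the ATG8 family (MAP1LC3B, GABARAP and relatives) are conjugated, and TFEB, TFE3 and MITF are transcription factors that bind an extended E-box in the promoters of many lysosomal genes. In B cells the endosomal and lysosomal compartment is also where antigen is processed for MHC class II.

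The extended E-box is shown for members that hold it, since it is a sequence feature of some V-ATPase, hydrolase and membrane genes of this group. It was chosen for its known place in lysosomal promoters, so its share among the members is description only. Promoters were taken from RefSeq (build GRCh38.p14) as the 250 bases before and the 50 bases after each annotated start. The set used did not cover every gene, and 51 of the 65 members had an entry in it. A gene was counted when any of its starts held the motif on either strand, with a mean of 1.49 starts per member and 1.45 per gene among those that also passed the filter on expression. TCACGTGA was present in 7 of the 51 members (13.7%), in 321 of all 27305 genes with a promoter (1.18%) and in 2.53% of the 7958 that passed the filter. Its shorter form TCACGTG was in 11 members (21.6%), against 4.49% of all genes and 7.7% of those that passed. The plain E-box CACGTG, which both longer forms contain, was in 12 members (23.5%), against 8.77% and 13.2%. A match describes the letters in the window and is no measurement of binding. ATP6V0B and ATP6V0E2, which hold TCACGTG alone, are not printed. All 7 genes with TCACGTGA, 2 with TCACGTG alone (CTSD and NEU1) and CD63, whose E-box lies before 1 of its 8 annotated starts, are printed as 30 bases, 5′ to 3′ on the strand of the gene, with the match in capitals.
ATP6V0D1, chr16:67481199-67481228, minus strand: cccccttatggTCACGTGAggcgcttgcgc
ATP6V1G1, chr9:114587699-114587728, plus strand: acgctgtgcggTCACGTGAcaacgggggcg
CTSA, chr20:45891298-45891327, plus strand: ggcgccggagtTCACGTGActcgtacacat
GAA, chr17:80101493-80101522, plus strand: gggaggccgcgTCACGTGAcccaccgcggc
LAMP1, chr13:113297199-113297228, plus strand: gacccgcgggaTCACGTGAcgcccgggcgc
MCOLN1, chr19:7522571-7522600, plus strand: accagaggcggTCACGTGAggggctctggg
VPS11, chr11:119067772-119067801, plus strand: gctggctcagcTCACGTGAcaaagctcccg
CTSD, chr11:1763957-1763986, minus strand, with TCACGTG on the other strand: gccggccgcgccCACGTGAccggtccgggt
NEU1, chr6:31862931-31862960, minus strand: gatgctgcgtgaTCACGTGggaggagatga
CD63, chr12:55729172-55729201, minus strand: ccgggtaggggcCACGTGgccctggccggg

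All values are FPKM, the fragments mapped to a transcript per kilobase of its length and relative to all mapped fragments, as the authors deposited them. They summed to between 208289 and 480612 per library and were lowest in both libraries of replicate 1, and the read number behind each value is unknown. The spacing of the smallest FPKM of each gene gave a relative depth of 71.2% to 92.7% of that of the Scr library of replicate 3. Of 7 B-cell and ABC-DLBCL markers, 6 reached an FPKM of 1 in every library, whereas 6 myeloid and 6 T and NK cell markers each stayed under 1 in every library. Of 4 epithelial markers, EPCAM ran from 2.59 to 5 FPKM and CDH1 was listed at 0 in all 6. ROCK2 itself was at 2.75, 5.35 and 1.26 FPKM in ROCK2 KD and 4.32, 7.21 and 5.78 FPKM in Scr libraries of replicates 1, 2 and 3. Each knockdown library was below the control of its number, with log2 differences of -0.54, -0.36 and -1.59, and the estimate over the pairs was -0.83 (SE 0.23, limma adjusted p = 0.806). For ROCK1 the estimate was 0.01 (SE 0.10).

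Over the 6 libraries the highest mean levels among the members were those of GABARAP, ATP6V1F, GRN, ATP6V0B and RAB7A. GABARAP, an ATG8 protein, was at 174 ± 65.8 FPKM in ROCK2 KD and 143 ± 56.1 in Scr libraries (SD, n = 3 each). ATP6V1F, a subunit of the V1 sector, was at 156 ± 49.9 and 152 ± 55.6 FPKM, and GRN, the progranulin gene, at 114 ± 53.5 and 102 ± 42.9 FPKM (SD, n = 3 each). ATP6V0B, a subunit of the V0 sector, was at 100.3 ± 41.7 and 96.9 ± 33.1 FPKM, and RAB7A, a GTPase of late endosomes, at 87.9 ± 30.3 and 85.8 ± 26.7 FPKM (SD, n = 3 each). Neighbours in this order differed by less than the SD of either gene, except ATP6V1F and GRN in Scr libraries, whose gap was larger than the SD of GRN. At the other end, 7 members were under an FPKM of 1 in more than 3 libraries and were not tested, namely ATP6V1B1, ATP6V1E2, ATP6V1G3, ATP6V0A4, ATP6V0D2, MITF and the acid alpha-glucosidase gene GAA. GAA was at 3.13, 0.391 and 0.987 FPKM in ROCK2 KD and 2.92, 0.654 and 0.68 FPKM in Scr libraries, above 1 in replicate 1 alone. The other 58 members were tested, and none of them passed the filter through 1 group alone.

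For most V-ATPase subunits with several isoforms, 1 isoform carried nearly all of the signal. ATP6V1B2, which encodes the B subunit of the catalytic V1 head, ran from 13.1 to 33.8 FPKM while ATP6V1B1, an isoform known from kidney, was listed at 0 in all 6 libraries. The d subunit of V0 was represented by ATP6V0D1, from 23.6 to 79.6 FPKM, and ATP6V0D2, known from osteoclasts and kidney, was listed at 0 in all 6. Of the a subunits, which lie in the membrane, ATP6V0A1 ran from 7.89 to 29.2 FPKM and ATP6V0A2 from 4.34 to 10.7 FPKM, while ATP6V0A4 did not exceed 0.0115 FPKM. A further a subunit is encoded by TCIRG1, which carries no ATP6V symbol and ran from 6.27 to 14 FPKM. ATP6V1E1 ran from 29.9 to 74.4 FPKM and ATP6V1E2 from 0.805 to 1.26 FPKM. The G subunit showed the same order, with ATP6V1G1 from 35 to 69.9, ATP6V1G2 from 0.318 to 3.27 and ATP6V1G3 from 0 to 0.205 FPKM. Both e isoforms were present, ATP6V0E1 from 52.3 to 134 and ATP6V0E2 from 5.39 to 12.3 FPKM. The C subunit differed between replicate numbers. ATP6V1C1 ran from 8.75 to 24.4 FPKM, and ATP6V1C2 was at 20.2, 1.24 and 0.635 FPKM in ROCK2 KD and 17.8, 0.97 and 0.95 FPKM in Scr libraries, so that ATP6V1C2 was the higher isoform in both libraries of replicate 1 and the lower in the other 4.

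**Figure D1:**
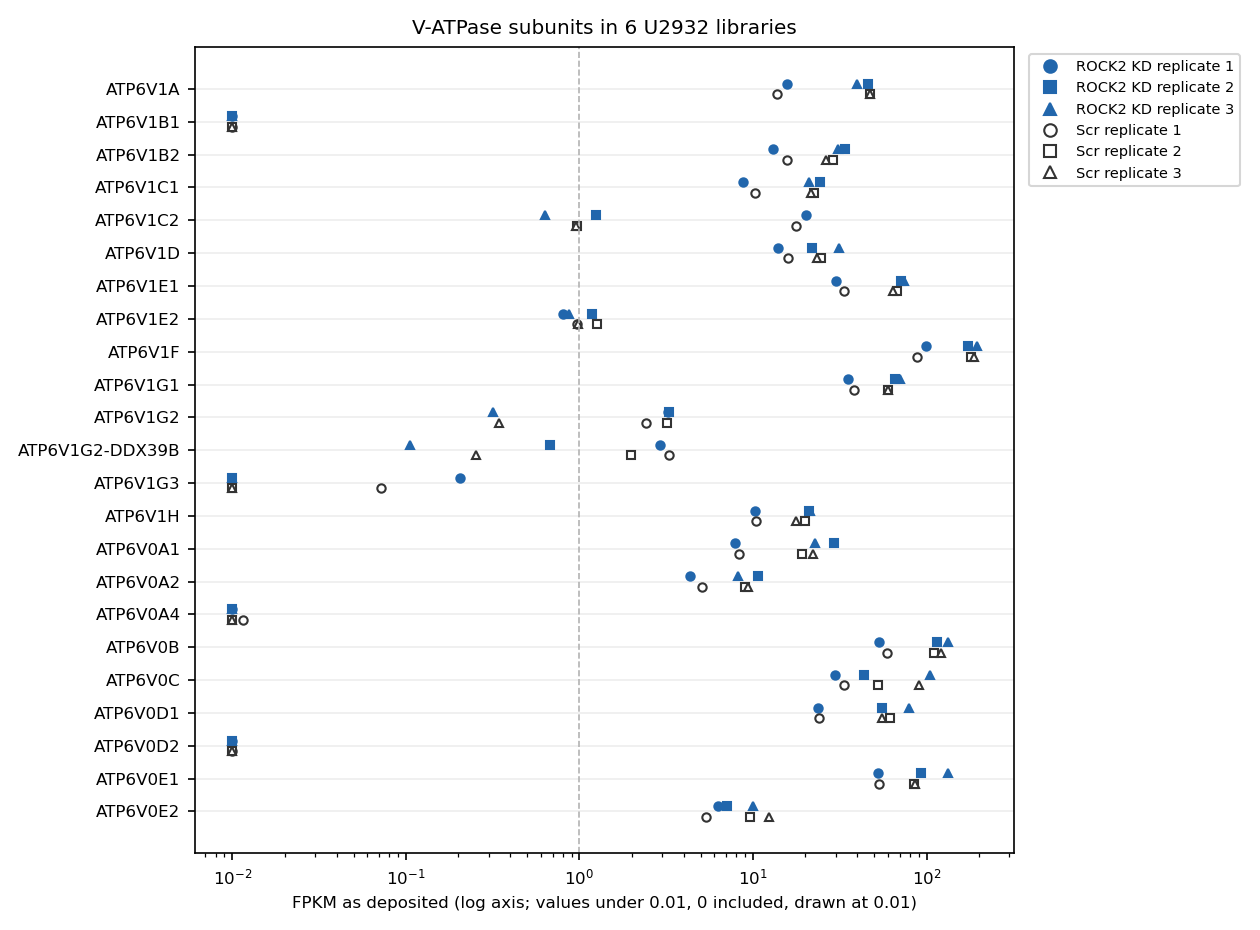
FPKM as deposited (log axis, with values under 0.01 drawn at 0.01) of the 23 V-ATPase genes in each of the 6 libraries, with filled blue symbols for ROCK2 KD, open symbols for Scr, symbol shape for the replicate number and a dashed line at 1 FPKM. ATP6V1B1, ATP6V0D2 and ATP6V0A4 lie at or near 0, and ATP6V1C2 lies near 20 FPKM in both replicate 1 libraries and near 1 FPKM in the others.

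ROCK2 KD was compared with Scr within replicate numbers on log2(scaled FPKM + 1), where the scaling removes differences in overall level between libraries, and differences on this scale understate those of genes with low FPKM. In bulk RNA, fewer cells with a transcript and less of it per cell cannot be told apart. Of the 58 tested members, 0 had a limma adjusted p under 0.05, against 0% of the 10526 genes tested, and their adjusted p values ran from 0.793 to 0.999. No member is therefore called changed, although with ComBat on the replicate number in place of the block 4 of the 58 members and 296 of the 10526 genes had a limma adjusted p under 0.05. At an unadjusted p under 0.05 there were 5 members (8.62%), CTSC, CD63, LAMP2, CTSZ and ASAH1, all higher in ROCK2 KD, and 0 lower, where the shares over all genes were 3.14% higher and 2.29% lower. In sign, 43 members (74.1%) had an estimate above 0, against 49.4% of all genes, and the median was 0.07 against 0.00. A higher level in all 3 pairs was seen for 12 members (20.7%; 13.1% of all genes), and a lower level in all 3 for 1 member (1.72%; 12% of all genes).

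CTSC encodes cathepsin C, a lysosomal peptidase that activates granule proteases, on chromosome 11 of GRCh37 from 87998237 to 88092852. It was at 14.1, 45.5 and 84.3 FPKM in ROCK2 KD and 10.6, 30.04 and 38 FPKM in Scr libraries of replicates 1, 2 and 3. Each ROCK2 KD library stood above its own control, yet replicate 1 was lowest in both groups and the groups overlapped. The log2 difference was 0.69 (SE 0.15, unadjusted p = 0.00235, limma adjusted p = 0.793), with 0.39, 0.59 and 1.11 in the single pairs.

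CD63, a tetraspanin of late endosomes and exosomes on chromosome 12 of GRCh37 from 56119107 to 56123491, was at 35.5, 58.5 and 71.7 FPKM in ROCK2 KD and 30.9, 43.9 and 45.9 FPKM in Scr libraries. After scaling the values were 49.2, 55.1 and 70.6 in ROCK2 KD and 42.8, 41.2 and 45.9 in Scr, which made it the 1 member (1.72%) whose ROCK2 KD libraries all stood above all Scr libraries, against 0.922% of all genes. No member stood wholly below, against 0.76% of all genes. The log2 difference of CD63 was 0.41 (SE 0.11, unadjusted p = 0.00875, limma adjusted p = 0.806).

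LAMP2, a glycosylated protein of the lysosomal membrane encoded on chromosome X of GRCh37 from 119560003 to 119603220, was at 12.4, 26.8 and 29.9 FPKM in ROCK2 KD and 10.9, 20.3 and 21.4 FPKM in Scr libraries. The groups overlapped, and within pairs it was higher by 0.17, 0.39 and 0.44, with an estimate of 0.34 (SE 0.11, unadjusted p = 0.0168, limma adjusted p = 0.867). CTSZ, a lysosomal carboxypeptidase gene on chromosome 20 of GRCh37 from 57560741 to 57583293, was at 45.2, 75.2 and 148 FPKM in ROCK2 KD and 36.5, 72.6 and 78.6 FPKM in Scr libraries. Its estimate of 0.42 (SE 0.16, unadjusted p = 0.0358, limma adjusted p = 0.903) rested mainly on replicate 3, with pair differences of 0.30, 0.06 and 0.88, and was 0.18 without it. ASAH1, the acid ceramidase, was at 11.8, 12.2 and 16.7 FPKM in ROCK2 KD and 9.76, 10.9 and 12 FPKM in Scr libraries, with groups that overlapped after scaling and an estimate of 0.28 (SE 0.11, unadjusted p = 0.0371, limma adjusted p = 0.903).

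**Figure D2:**
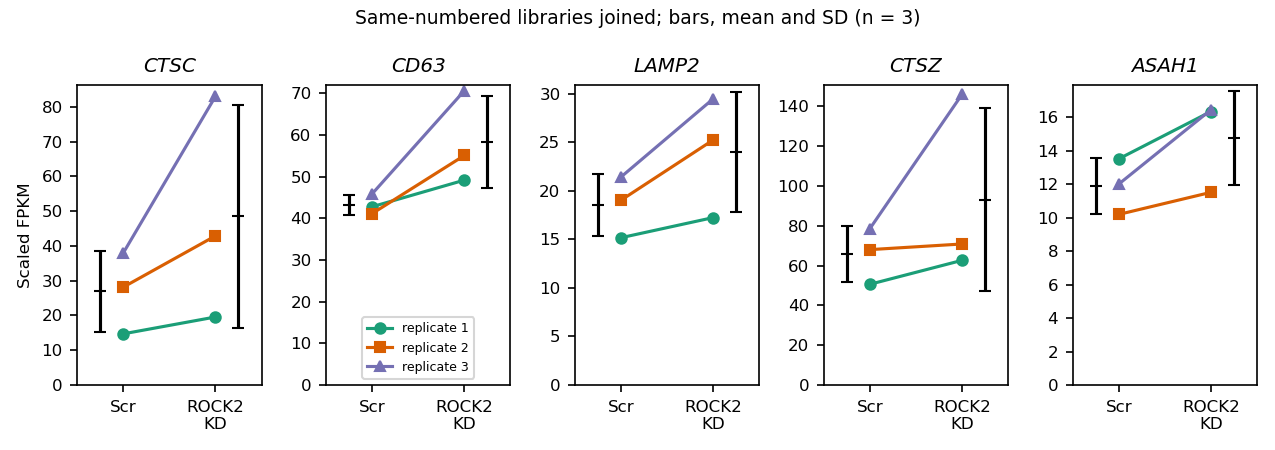
Scaled FPKM of CTSC, CD63, LAMP2, CTSZ and ASAH1 in Scr and ROCK2 KD libraries, with coloured lines joining libraries of the same replicate number and black bars for the mean and SD (n = 3). Within every pair the ROCK2 KD point is the higher one, the step is largest in replicate 3 for all 5 genes, and CD63 is the gene whose Scr points all lie below its ROCK2 KD points.

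The enzymes, cofactors, lipid carriers and membrane proteins of the lysosome made up 24 members, of which 23 were tested. Of these, 22 had an estimate above 0, against 49.4% of all genes, with a median of 0.19. They held all 5 members with a limma unadjusted p under 0.05, where 3.14% of all genes were higher and 2.29% lower. The 7 proteases were all above 0, from 0.07 for CTSA, which also protects beta-galactosidase and the sialidase, to 0.69 for CTSC. Among the other proteases, CTSB was at 0.29 (SE 0.21) with pair differences of 0.12, -0.20 and 0.95, so that its sign was not shared by the pairs. Without replicate 3, CTSA, CTSB, CTSD, CTSH and TPP1 were below 0, from -0.28 to -0.03, while CTSC was at 0.49 and CTSZ at 0.18. The 5 tested glycosidases were all above 0, from 0.11 for HEXA, a subunit of beta-hexosaminidase, to 0.26 for MANBA, the beta-mannosidase. HEXA was at -0.16 without replicate 3, while GLA, GLB1, MANBA and NEU1 stayed above 0. GLB1, the beta-galactosidase, was higher in all 3 pairs, by 0.01, 0.13 and 0.42.

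Lipid hydrolases, cofactors and carriers were all at or above 0 as well. PSAP, the precursor of the saposins that present lipids to hydrolases, was at 48.2, 92.8 and 128 FPKM in ROCK2 KD and 47.2, 82.7 and 67.9 FPKM in Scr libraries, nearly level in replicate 1 and highest in the ROCK2 KD library of replicate 3. Its estimate was 0.36 (SE 0.17, unadjusted p = 0.0687, limma adjusted p = 0.93), with pair differences of 0.03, 0.17 and 0.88, and was 0.10 without replicate 3. LIPA, the acid lipase, was at 0.28 (SE 0.12) and higher in all 3 pairs, and was at 0.16 without replicate 3. Of the cholesterol transporters, NPC2 was at 0.21 (SE 0.14) and NPC1 at 0.02 (SE 0.11). Without replicate 3, NPC2 was at 0.01 and NPC1 at 0.02. SMPD1, the acid sphingomyelinase, had the smallest estimate, 0.00 (SE 0.23), from pair differences of -0.36, -0.37 and 0.73. Of the membrane proteins not yet named, LAMP1 was at 0.11 (SE 0.15), with pair differences of -0.16, -0.06 and 0.56, and at -0.11 without replicate 3. With all replicates, the calcium channel MCOLN1 at -0.02 (SE 0.11) was the 1 of the 23 below 0.

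Among the 18 tested V-ATPase genes, which include a readthrough transcript, 12 had an estimate above 0 and 6 below, with a median of 0.04. Over all genes, 49.4% were above 0. Of the 18, 0 had a limma unadjusted p under 0.05, where 3.14% of all genes were higher and 2.29% lower. The largest estimate above 0 was that of ATP6V0E1, 0.23 (SE 0.14), with pair differences of -0.03, 0.13 and 0.61. ATP6V0A1 followed at 0.17 (SE 0.15), which came from replicate 2, with pair differences of -0.07, 0.58 and 0.00. ATP6V0E2, the other e subunit, was at 6.25, 7.09 and 9.97 FPKM in ROCK2 KD and 5.39, 9.57 and 12.3 FPKM in Scr libraries, higher in replicate 1 and lower in replicates 2 and 3, with an estimate of -0.16 (SE 0.14, limma adjusted p = 0.971) that was -0.34 without replicate 1, -0.05 without replicate 2 and -0.09 without replicate 3. The readthrough transcript ATP6V1G2-DDX39B was at 2.9, 0.681 and 0.106 FPKM in ROCK2 KD and 3.27, 1.97 and 0.253 FPKM in Scr libraries, and was the 1 member lower in all 3 pairs. Its estimate was -0.37 (SE 0.16, unadjusted p = 0.0554, limma adjusted p = 0.903), with pair differences of -0.14, -0.79 and -0.18, and became -0.16 without replicate 2 and -0.78 with a pseudocount of 0.1. Since it shares sequence with ATP6V1G2 and DDX39B, the assignment of its fragments is uncertain.

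The MiT/TFE factors, which act on promoters of this group, had estimates just below 0. TFEB was at 13.3, 19.7 and 23.7 FPKM in ROCK2 KD and 12.3, 27 and 22.5 FPKM in Scr libraries, lower than its control in replicate 2 alone, with an estimate of -0.09 (limma adjusted p = 0.982). TFE3 was at 7.84, 10.4 and 11.6 FPKM in ROCK2 KD and 9.38, 11.3 and 11 FPKM in Scr libraries, with an estimate of -0.09 (SE 0.11, limma adjusted p = 0.98). MITF did not exceed 0.216 FPKM in any library. Members with TCACGTG in a promoter window had a median estimate of 0.07 (10 tested, 7 above 0), and those with windows that lack it a median of 0.05 (36 tested, 27 above 0). CTSC and CTSZ have windows without TCACGTG, CD63 holds the plain E-box printed above, and LAMP2, ASAH1 and PSAP had no entry in the promoter set used.

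Of the 15 autophagy and tethering genes, 9 had an estimate above 0 and 6 below, with a median of 0.02, where 49.4% of all genes were above 0. The 4 ATG8 proteins and SQSTM1, a receptor that links ubiquitinated cargo to them, were all above 0. GABARAP was at 99.4, 196 and 225 FPKM in ROCK2 KD and 82.3, 193 and 154 FPKM in Scr libraries, higher in each pair and nearly level in replicate 2, with an estimate of 0.27 (SE 0.12, unadjusted p = 0.0505, limma adjusted p = 0.903) that was 0.15 without replicate 3. MAP1LC3B, the ATG8 protein most used to follow autophagosomes, was at 62.9, 51 and 61.2 FPKM in ROCK2 KD and 65.1, 44.7 and 47.8 FPKM in Scr libraries, with an estimate of 0.16 (SE 0.11) that was 0.07 without replicate 3. SQSTM1 was at 75.2, 88.4 and 102 FPKM in ROCK2 KD and 108, 68.9 and 59.1 FPKM in Scr libraries, lower than its control in replicate 1 and higher in replicates 2 and 3, with pair differences of -0.52, 0.36 and 0.75. The conjugation genes ATG5, ATG7, ATG12 and ATG16L1 lay between -0.09 and 0.07. ATG5, whose product is joined to ATG12, was at 3.73, 8.2 and 8.82 FPKM in ROCK2 KD and 4.58, 8.23 and 8.84 FPKM in Scr libraries and differed from its control mainly in replicate 1, by -0.25, 0.00 and -0.02 in the 3 pairs. ULK1, the kinase that starts autophagy, was at 2.94, 0.916 and 3.04 FPKM in ROCK2 KD and 4.2, 1.4 and 2 FPKM in Scr libraries, lower in replicates 1 and 2 and higher in replicate 3, with an estimate of -0.11 (SE 0.18). BECN1, a subunit of the lipid kinase complex of early autophagy, was at -0.01 (SE 0.10), RAB7A at 0.02 (SE 0.10) and the tethering subunit VPS18 at -0.01 (SE 0.10).

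The 3 pairs did not contribute alike. In replicate 1, 24 of 58 members (41.4%) were higher in ROCK2 KD, against 52% of all genes, with a median difference of -0.04. In replicate 2 there were 34 (58.6%), against 49.9%, with a median of 0.05. In replicate 3 there were 49 (84.5%), against 50%, with a median of 0.23, so most of the members' shift lay in that pair. A log2 difference above 0.3 was found there for 28 members (48.3%), against 12.2% of all genes, and one below -0.3 for 0 members, against 12.5%. The 23 tested lysosomal enzymes, cofactors, carriers and membrane proteins were all higher in ROCK2 KD in replicate 3, with a median of 0.56, compared with 14 of them and a median of 0.03 in replicate 1, and 13 and 0.06 in replicate 2. The V-ATPase genes had medians of -0.09, 0.08 and 0.07 in the 3 pairs. Without replicate 3 the median estimate of the 58 members was -0.01 and that of the proteases -0.04, while at an unadjusted p under 0.05 CTSC alone was higher (1.72% of members, 2.38% of all genes) and SMPD1 and ULK1 were lower (3.45%, against 1.44%). Leaving out 1 replicate at a time turned the sign of 34 of the 58 members at least once, a count that was not made over all genes. Replicate 3 was also the pair with the lowest ROCK2 level in ROCK2 KD, 1.26 FPKM. Of the 7 B-cell markers, 7 were higher in ROCK2 KD in replicate 1, 5 in replicate 2 and 2 in replicate 3, with median differences of 0.45, 0.19 and -0.26. Over all 7 B-cell markers the summed FPKM ran from 470.1 to 1572 in ROCK2 KD and from 336.1 to 1602 in Scr libraries, and over the 6 myeloid markers from 0.295 to 0.657 and from 0.369 to 0.642, with MPO listed at 0. The part of ROCK2 or B-cell marker levels in the replicate 3 difference was not tested, and 1 pair allows no test of its own.

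**Figure D3:**
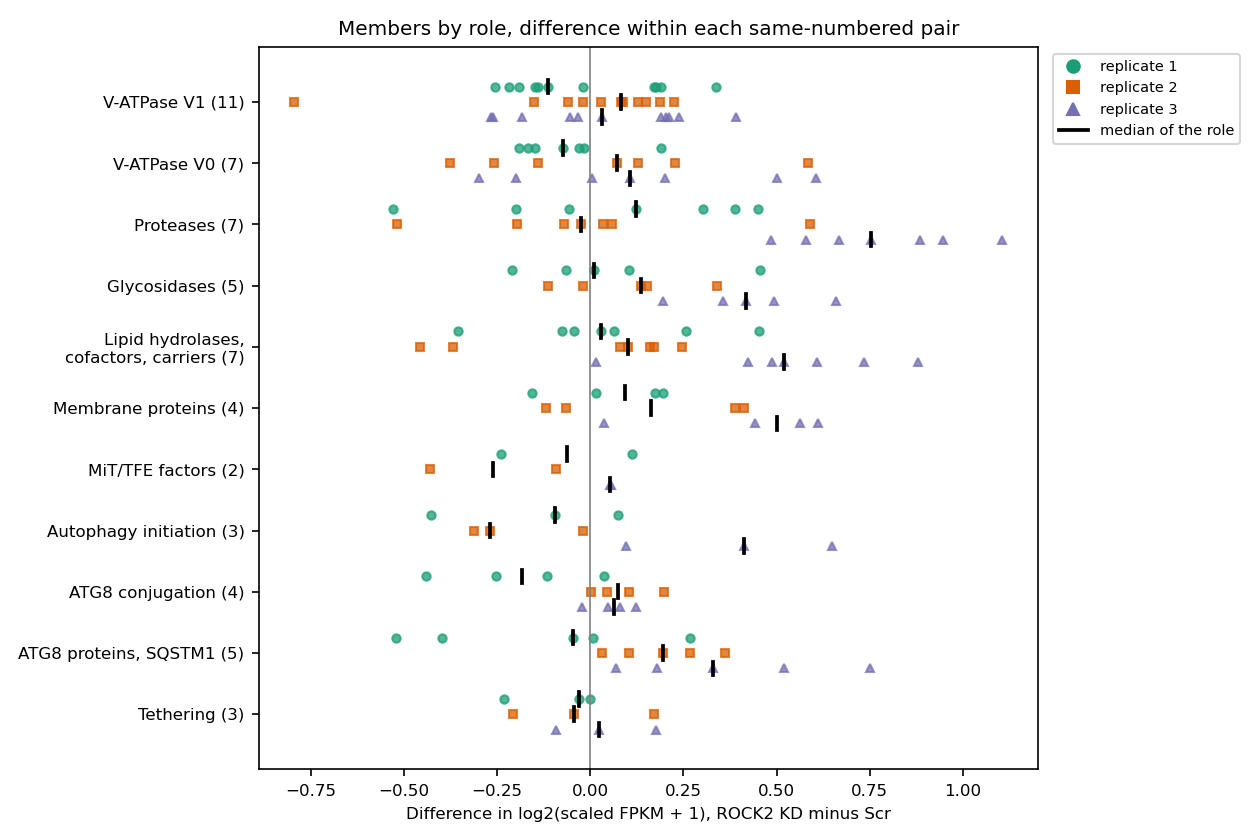
Difference in log2(scaled FPKM + 1) between ROCK2 KD and Scr within each same-numbered pair, 1 point per tested member (number in brackets), grouped by role, with the median of the role as a black bar. The replicate 3 points (triangles) of proteases, glycosidases, lipid genes and membrane proteins all lie right of 0, while those of replicates 1 and 2 lie on both sides, as do V-ATPase genes in every pair.

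Levels differed more between replicate numbers than between groups. The range over replicate means exceeded the size of the group difference in 56 of 58 members (96.6%), against 96.1% of all genes, and had a median of 0.54 on the log2 scale, against 0.59. The widest was that of ATP6V1C2, 3.93, from the replicate 1 levels given above. NEU1, the lysosomal sialidase, followed at 2.64, with 15.3, 30.2 and 4.36 FPKM in ROCK2 KD and 16.1, 27.2 and 2.77 FPKM in Scr libraries. ATP6V1G2 was at 3.25, 3.27 and 0.318 FPKM in ROCK2 KD and 2.42, 3.21 and 0.344 FPKM in Scr libraries. Both genes were thus low in both libraries of replicate 3. NEU1 (31825436 to 31830682), ATP6V1G2 (31512221 to 31516204) and ATP6V1G2-DDX39B (31497996 to 31514385) are the tested members in the MHC region of chromosome 6, taken as 29000000 to 34000000 in GRCh37. Of the 110 genes tested in that window, 106 were lower in replicate 3 than in the mean of replicates 1 and 2 in ROCK2 KD libraries, and 106 in Scr libraries, with median differences of -2.01 and -2.00, against 0.18 and 0.15 over all genes. GLA, the alpha-galactosidase, was low in replicate 1 instead, at 7.61, 39.9 and 27.7 FPKM in ROCK2 KD and 7.03, 31.5 and 23.7 FPKM in Scr libraries. It was higher in ROCK2 KD in each pair, by 0.10, 0.34 and 0.20, with an estimate of 0.21 (SE 0.10, limma adjusted p = 0.933).

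**Figure D4:**
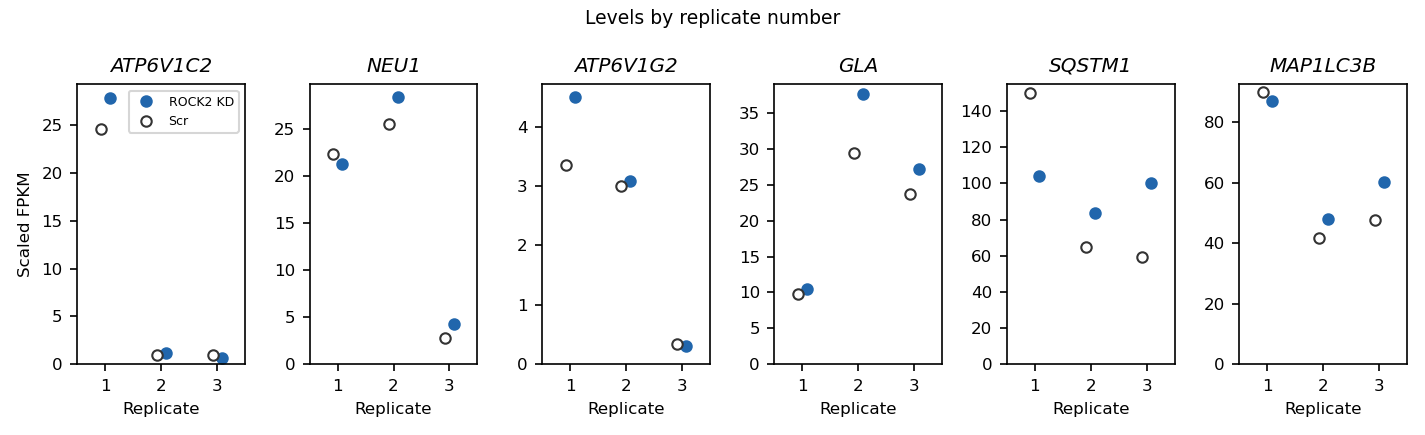
Scaled FPKM of 6 members against replicate number, with filled blue points for ROCK2 KD and open points for Scr. ATP6V1C2 is high in replicate 1 alone, NEU1 and ATP6V1G2 are low in replicate 3 and GLA in replicate 1, each in both groups, while for SQSTM1 and MAP1LC3B ROCK2 KD lies below Scr in replicate 1 and above it in replicates 2 and 3.

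A further 115 genes of the pathway came from lists of other hydrolases, membrane proteins, sorting factors, pump assembly factors, nutrient sensors, autophagy genes, cargo receptors and tethering subunits, and 102 of them were tested. By limma 0 had an adjusted p under 0.05, 5 were higher (4.9%, against 3.14% of all genes) and 1 lower (0.98%, against 2.29%) at an unadjusted p under 0.05, and 70 had an estimate above 0 (68.6%, against 49.4%), with a median of 0.07. The other hydrolases and cofactors had 24 of 27 above 0 and a median of 0.16, with pair medians of 0.02, 0.12 and 0.42, highest in replicate 3 as among the members. The other membrane proteins and transporters had 7 of 12 above 0 and a median of 0.05. The other core autophagy genes had 10 of 21 above 0 and a median of 0.00. IGF2R, the receptor that sorts hydrolases by their mannose phosphate tag, was at 3.73, 10.2 and 14.1 FPKM in ROCK2 KD and 3.6, 7.1 and 7.69 FPKM in Scr libraries, with an estimate of 0.43 (SE 0.16, limma adjusted p = 0.88). AGA, which cleaves sugar from asparagine, was at 5.04, 7.61 and 8.83 FPKM in ROCK2 KD and 3.54, 6.38 and 6.25 FPKM in Scr libraries, with an estimate of 0.36 (SE 0.11, limma adjusted p = 0.854). The cathepsin CTSS had an estimate of 0.38, the nutrient-sensing GTPase RRAGD of 0.36 and the carboxypeptidase SCPEP1 of 0.32, and AGA, CTSS, IGF2R, RRAGD and SCPEP1 were each higher in all 3 pairs. BNIP3, a receptor for mitophagy, was at 59.96, 10.9 and 17.5 FPKM in ROCK2 KD and 59.6, 17.3 and 25.5 FPKM in Scr libraries, nearly level in replicate 1 and lower in replicates 2 and 3, with an estimate of -0.38 (SE 0.14, limma adjusted p = 0.885).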

How the data were processed

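The authors aligned paired reads to hg19 with STAR and deposited FPKM from Cufflinks, 1 table per library. The values are not counts, so no count test was run. Members, roles and lists were chosen with earlier results of these data known. Libraries were scaled to Scr replicate 3 by a trimmed mean of log ratios (trims 0.3 and 0.05), and genes that reached 1 FPKM in 3 or more libraries entered limma 3.58.1 (R 4.3.3) on log2(scaled FPKM + 1), with a block for replicate number, a mean-variance trend, two-sided p values and Benjamini-Hochberg adjustment over all 10526 genes at 0.05. The authors corrected for a replicate-based effect with ComBat and then ran limma on counts. Here the numbers in the labels entered limma as a block instead, and ComBat followed by limma was an alternative. Deviations from group means correlated across genes at 0.740 to 0.854 for same-numbered libraries and at -0.649 to 0.0562 for others. Deviations within a group sum to 0, so high values for same-numbered libraries force lower ones for the others, and the contrast is partly fixed by construction. In simulated data (10526 genes, of which 200 carried a log2 change of 1) a median of 90.2% was recovered over 10 draws, with 4.46% false calls, and with no change 0 were called. No change between 0 and 1 was simulated, and the largest member estimate was 0.69. The share recovered therefore does not describe changes of the size estimated for the members. Every member could be named. Full values were set for members with an unadjusted p under 0.05, the 5 largest estimates in each direction, the 5 highest levels and the MiT/TFE factors, and those of SQSTM1, MAP1LC3B, NEU1, ATP6V1G2, ATP6V1C2 and GLA were added after their values were seen. The rule also covered members that did not pass the filter, of which GAA is given by library and the others by range, by highest level or as 0. Alternatives covered the block, ComBat, the pseudocount, the filter, the scaling, the trend and leaving out each replicate. Gene positions are those of GENCODE lifted to GRCh37. Python 3.11.15, pandas 2.3.3, numpy 2.4.6 and, for plots, matplotlib 3.10.9 were used. RUBCN and KRT19 were not analysed here, and the values of 1 B-cell marker are not reported here.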

Additional observations from a re-analysis of the deposited data

How the results depend on the processing

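With ComBat on the replicate number (condition not in its model) and then limma with no block, 296 genes and 4 members (CTSC, CD63, LAMP2 and ASAH1) had an adjusted p under 0.05, and at an unadjusted p under 0.05 11 members (19%) were higher and 1 (1.72%) lower, against 10.6% and 9.62% of all genes. By construction that fit does not count the degrees of freedom spent on the correction. In each other alternative 0 members had a limma adjusted p under 0.05. With no replicate block, which cannot alter an estimate in complete pairs, 0 members in place of 5 were higher at an unadjusted p under 0.05, against 0.171% of all genes in place of 3.14%. With a pseudocount of 0.1, median scaling or no trend, 1 member, ATP6V1G2-DDX39B, was lower, against 2.23% to 2.52% of all genes. With no filter CTSZ no longer had an unadjusted p under 0.05 (limma unadjusted p = 0.090, adjusted p = 0.911), and 4 of 63 members (6.35%) were higher, against 2.11% of all genes. Where every library had to reach an FPKM of 1, GABARAP also had one (limma unadjusted p = 0.045, adjusted p = 0.881), and 6 of 54 members (11.1%) were higher, against 3.23%. Leaving out each replicate in turn gave 0 to 4 genes past the threshold and, at an unadjusted p under 0.05, 1 to 9 members higher (10.3%, 15.5% and 1.72%, against 3.11%, 3.8% and 2.38% of all genes, without replicates 1, 2 and 3) and 0 to 2 lower (1.72%, 0% and 3.45%, against 5.21%, 1.56% and 1.44%), and a median estimate of -0.01 (without replicate 3) to 0.17. It turned the sign of 34 of the 58 tested members at least once, and the same count was not made over all genes. Of the 34, 6 were among the 17 members whose estimates were followed across the alternatives (ULK1 and ATP6V1G2-DDX39B were not tested where every library had to reach an FPKM of 1). Of these 6, ATP6V0B ran from -0.040 to 0.089, ATP6V1F from -0.015 to 0.10, GRN from -0.0016 to 0.47, RAB7A from -0.060 to 0.071, TFEB from -0.19 to 0.083 and ULK1 from -0.37 to 0.050. Over the 11 alternatives CTSC stayed between 0.49 and 0.85 and CD63 between 0.30 and 0.51. FPKM give no counting error, which limits what can be said of members near the filter.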
